A study of Mus musculus with 10 samples.

Results

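The genes that encode histones and histone variants were followed in lists of transcription start sites (TSSs) occupied by ARID2, the subunit that sets the PBAF form of the SWI/SNF chromatin remodeler apart, in synchronized mouse spermatocytes. The members were the mouse protein-coding genes whose RefSeq symbol, or an older symbol leading to the same gene, begins with Hist and a cluster digit followed by h, or with H1f, H2af or H3f. This gave 84 of the 21774 protein-coding genes annotated on GRCm38.p6, the build named mm10 in the labels. Of the 84 genes, 64 were clustered replication-dependent genes, 13 were variant genes and 7 were testis-specific genes.

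Cells were spermatogenic cells of CD1 mice in which spermatogenesis had been synchronized: WIN-18446, a blocker of retinoic acid synthesis, was given by gavage from P1 to P10, and retinoic acid was injected under the skin at P11. Tubules were digested and sieved at postnatal day P28 or P28.5, 17 and 17.5 days after the injection, to obtain populations enriched for pachytene and diplotene (prophase-I) and metaphase spermatocytes, without a sort that would remove other tubule cells. CUT&RUN, in which an antibody holds a nuclease at its target so that the DNA around it is released and sequenced, was performed at each age with 2 ARID2 libraries, 2 libraries for the catalytic subunit BRG1 made with different antibodies, and 1 library without a primary antibody. The data used here are 1 list of ARID2-occupied TSSs for each age, made by the authors from the averaged ARID2 libraries. The study reported that a smaller share of these TSSs overlapped a called ARID2 peak, a stretch of enriched signal, at P28.5 than at P28. The lists give positions and gene names with no signal value, so there is no spread between replicates, and the ages were compared without a test.

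Replication-dependent histone genes sit in dense clusters, mostly lack introns, and give mRNAs that end in a stem-loop in place of a poly(A) tail. They serve DNA synthesis, whereas variant genes mostly lie singly, often have introns, and are expressed outside S phase as well. Male germ cells add testis-specific histones, among them H1t, TH2A and TH2B, which take the place of their somatic counterparts in spermatocytes before most histones give way to transition proteins and protamines in spermatids.

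The genes of TH2B and TH2A had listed positions of their own at P28.5 alone, and their shared promoter is shown first, beside those of other H2A and H2B genes that face away from each other in the same way. Among the 84 genes there were 12 such head-to-head pairs, all of 1 H2A and 1 H2B gene, with 5′ ends 164 to 281 bp apart. The stretches between the 5′ ends of 6 pairs are given below, read from GRCm38.p6 on the plus strand, with CCAAT, the TATA box letters TATAAA, and the octamer ATTTGCAT on either strand in capitals; none of the matches overlapped a match of another motif. Listed here means that a row carried the gene's name no more than 2000 bp from its 5′ end. The first lies in an intron of the long non-coding RNA gene Gm33516, and no other gene was annotated over the remaining 5.
Hist1h2ba/Hist1h2aa (TH2B/TH2A, both listed at P28.5 only), chr13:23934157-23934436: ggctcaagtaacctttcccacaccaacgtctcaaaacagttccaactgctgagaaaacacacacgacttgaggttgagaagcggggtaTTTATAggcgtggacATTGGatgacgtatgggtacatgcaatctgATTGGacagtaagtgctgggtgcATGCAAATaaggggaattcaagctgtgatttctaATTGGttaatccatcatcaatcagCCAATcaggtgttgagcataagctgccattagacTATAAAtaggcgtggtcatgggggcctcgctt
Hist1h2ac/Hist1h2bc (Hist1h2bc listed at P28.5 only), chr13:23683960-23684198: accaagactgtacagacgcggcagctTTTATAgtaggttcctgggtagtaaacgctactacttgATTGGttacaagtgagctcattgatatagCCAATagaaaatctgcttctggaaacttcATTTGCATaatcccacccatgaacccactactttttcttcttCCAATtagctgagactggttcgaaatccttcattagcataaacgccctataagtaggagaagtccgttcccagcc
Hist1h2bf/Hist1h2ad (Hist1h2ad listed at both ages), chr13:23574208-23574380: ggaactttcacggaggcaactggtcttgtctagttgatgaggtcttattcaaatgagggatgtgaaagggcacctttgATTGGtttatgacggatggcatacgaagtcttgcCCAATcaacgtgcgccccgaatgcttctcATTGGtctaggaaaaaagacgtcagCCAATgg
Hist1h2bl/Hist1h2ai (Hist1h2ai listed at both ages), chr13:21716184-21716411: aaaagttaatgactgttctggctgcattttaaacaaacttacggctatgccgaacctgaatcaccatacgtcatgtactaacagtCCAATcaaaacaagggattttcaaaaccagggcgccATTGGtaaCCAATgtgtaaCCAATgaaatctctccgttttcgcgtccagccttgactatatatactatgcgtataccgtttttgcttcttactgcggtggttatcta
Hist1h2ae/Hist1h2bg (neither listed), chr13:23571221-23571399: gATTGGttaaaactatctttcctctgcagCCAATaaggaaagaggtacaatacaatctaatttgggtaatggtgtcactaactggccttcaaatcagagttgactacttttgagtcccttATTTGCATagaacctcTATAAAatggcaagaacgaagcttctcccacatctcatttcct
Hist2h2ac/Hist2h2be (neither listed), chr3:96220881-96221071: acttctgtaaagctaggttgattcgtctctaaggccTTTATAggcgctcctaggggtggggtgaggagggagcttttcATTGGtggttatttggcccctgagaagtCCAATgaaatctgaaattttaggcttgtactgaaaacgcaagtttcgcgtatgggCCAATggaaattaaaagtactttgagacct

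Every one of the 12 stretches, 163 to 280 bases long, held CCAAT, in 2 to 5 copies. Over the same lengths upstream of all 21774 protein-coding genes, 27.7% to 37.8% held it. TATAAA was present in 5 of 12 stretches, against 8.74% to 14.5% upstream of all genes, and ATTTGCAT in 4 of 12, against 1.11% to 1.79%. Each pair stretch lies upstream of 2 genes, whereas these percentages are of sequences upstream of 1 gene, so the units are unlike. The pairs Hist1h2bq/Hist1h2ao and Hist1h2ap/Hist1h2br also belong to a duplicated region, so the 12 stretches are not all independent. The matches did not separate listed from unlisted pairs: TATAAA was found in 2 of the 5 pairs with a listed gene and in 3 of the 7 without, and the octamer in 2 of each. The TH2B/TH2A stretch carried 4 CCAAT, 2 TATAAA and 1 octamer, which are letters in a window and not measured binding sites.

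By name, 16 of the 84 histone genes (19.0%) appeared in the P28 list, where 16.8% of all protein-coding genes did. In the P28.5 list there were 17 histone genes (20.2%), against 11.6% of all protein-coding genes. Both lists named 11 of them (13.1%, against 8.48%), which is 68.8% of the histone genes named at P28 and 64.7% of those named at P28.5, against 50.5% and 73.1% for all protein-coding genes. A name in these lists does not place the listed position at that gene. At 95.1% of 7131 positions at P28 and 96.3% of 5184 at P28.5, the name was that of the gene whose 5′ end lay closest among the protein-coding genes and the genes named in either list.

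Rows with histone gene names show what this means. The P28 list had 33 such rows at 18 positions, of which 18 rows at 4 positions lay over 2000 bp from any annotated 5′ end of the named gene. The P28.5 list had 21 rows at 19 positions, of which 1 row lay that far away. A stricter rule, chosen after the data were seen, therefore counted a gene as listed at its own start only when a row with its name lay within 2000 bp of its own 5′ end. By this rule the P28 list held 12 histone genes (14.3%) and the P28.5 list 16 (19.0%), against 13.7% and 11.4% of all protein-coding genes. The P28 share was thus near that of all genes and the P28.5 share above it. At both ages 9 genes were listed at their own start (10.7%, against 8.22%), while 3 were found only in the P28 list and 7 only in the P28.5 list. Over all protein-coding genes the order was the reverse, with 1192 only in the P28 list and 691 only in the P28.5 list. The histone counts lay closer together by name, with 5 only in the earlier list and 6 only in the later one. They were 6 and 7 when a row within 2000 bp could carry another gene's name. At the own start, minus-strand genes made up 2 of the 3 histone genes and 4 of the 7.

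**Figure D1:**
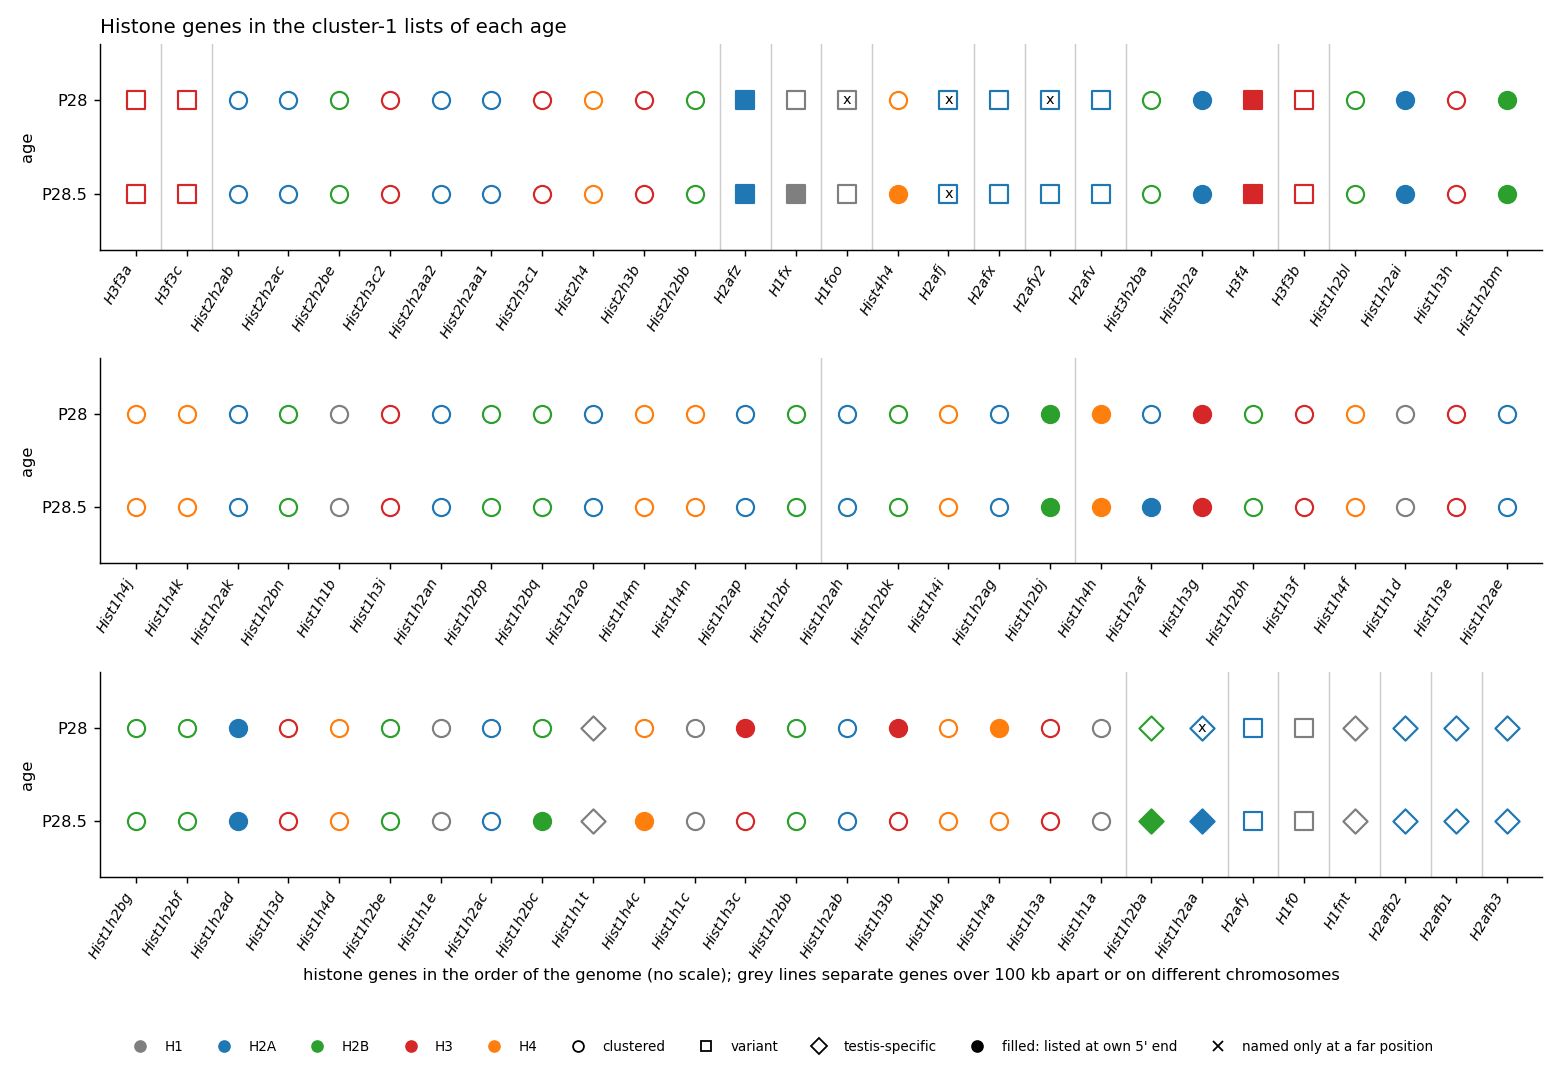
The 84 histone genes in genome order (x axis, no scale), with P28 above P28.5; colour gives the histone, shape the class, a filled symbol a row with the gene's name within 2000 bp of its own 5′ end, and a cross a name found only at a farther position. Filled symbols number 12 at P28 and 16 at P28.5, and the TH2B and TH2A genes (Hist1h2ba, Hist1h2aa) are filled at P28.5 alone.

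The histone genes were also compared by gene structure and strand. A single exon was annotated for 72 of the 84 histone genes (85.7%), compared with 10.6% of protein-coding genes. Of the 2317 single-exon protein-coding genes, 5.87% were named at P28 and 2.55% at P28.5, well below the histone gene shares. The lists also favoured the plus strand: the own start was listed in 23.9% of all protein-coding genes on the plus strand and 3.52% of those on the minus strand at P28, with 20.2% and 2.65% in the later list. Among histone genes the listed ones were also mostly on the plus strand, with 10 of 45 plus-strand genes (22.2%) and 2 of 39 minus-strand genes (5.13%) at P28. At P28.5 the counts were 12 of 45 (26.7%) and 4 of 39 (10.3%). Each of the 6 minus-strand histone genes listed at its own start was listed at its lower coordinate, which is its 3′ end. Because these genes are short, that end still lay within 2000 bp of the 5′ end in 32 of 39 minus-strand histone genes (82.1%), compared with 11.8% of minus-strand protein-coding genes. The part of strand in the comparison with all genes was not tested.

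Of the 7 testis-specific genes, 2 were listed at their own start at P28.5 (28.6%) and 0 at P28, against 11.4% and 13.7% of all protein-coding genes. With H3f4, the germ-cell H3 variant gene counted among the variants below, these counts would be 3 and 1. The 2 genes belong to the head-to-head pair at the outer edge of the chromosome 13 histone region. Hist1h2ba, which encodes TH2B, had a row at chr13:23933725, its own lower end and 431 bp from its 5′ end. Hist1h2aa, which encodes TH2A, had a row at chr13:23934462, 25 bp inside the gene. The P28 list also carried the name Hist1h2aa, but at chr13:23953456, 19019 bp away, which is the lower end of the neighbouring gene Scgn. By name alone TH2A was thus at both ages, whereas by position the pair was listed at P28.5 alone. The 5′ end of Gm33516 lies 288 bp from the Hist1h2ba row, so a signal of that non-coding gene and of the histone pair cannot be told apart.

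The remaining 5 testis-specific genes were absent from both lists. Hist1h1t, the gene of the spermatocyte linker histone H1t, lay 49231 bp from the closest listed position at P28 and 2273 bp at P28.5, where that position was the row of its neighbour Hist1h4c. H1fnt, a linker histone gene of spermatids, lay 50336 bp from a listed position at P28 and 293078 bp at P28.5. The X-linked genes H2afb1, H2afb2 and H2afb3, whose products are short H2A variants of spermatids, were 2897194 to 6529242 bp from the closest listed position at P28 and 17743397 to 21375445 bp at P28.5. None of the 84 genes lay farther from a listed position than these 3. Distances of this size were not particular to them, since X-linked genes of the other lists described below were also far from any listed position. At P28 and P28.5, Rbbp7 was 39549952 and 10957090 bp away, Atrx 17281048 and 6991591 bp, and H2bfm 13716905 and 14875957 bp.

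Among the 13 variant genes, 5 were named at P28 (38.5%) and 4 at P28.5 (30.8%), against 16.8% and 11.6% of all protein-coding genes. At their own start, however, 2 (15.4%) and 3 (23.1%) were listed, against 13.7% and 11.4%. The P28 share at the own start was thus near that of all genes. H2afz, the gene of the essential variant H2A.Z, had 2 rows exactly at its 5′ end at each age. H3f4, listed under the older name Gm12260, encodes the H3 variant H3t of male germ cells, and had 1 row exactly at its 5′ end at each age. It was counted among the variants, and with it in the testis-specific class the counts by name became 2 and 3 of the testis-specific genes. H1fx, a linker histone variant gene, was listed at P28.5 alone, at its lower end and 1061 bp from its 5′ end, while at P28 the closest position was 93510 bp away.

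The 250 bases before the 5′ ends of H2afz and H3f4 are given because these were the variant genes listed at their own start at both ages.
H2afz (chr3:137864237-137864486, plus strand, GC content 71.2%): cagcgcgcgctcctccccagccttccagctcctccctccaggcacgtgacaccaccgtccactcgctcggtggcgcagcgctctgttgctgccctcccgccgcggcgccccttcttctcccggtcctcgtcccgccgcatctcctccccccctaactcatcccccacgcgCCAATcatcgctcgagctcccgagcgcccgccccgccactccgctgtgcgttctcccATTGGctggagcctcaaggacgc
H3f4 (chr11:58961461-58961710, plus strand, GC content 45.6%): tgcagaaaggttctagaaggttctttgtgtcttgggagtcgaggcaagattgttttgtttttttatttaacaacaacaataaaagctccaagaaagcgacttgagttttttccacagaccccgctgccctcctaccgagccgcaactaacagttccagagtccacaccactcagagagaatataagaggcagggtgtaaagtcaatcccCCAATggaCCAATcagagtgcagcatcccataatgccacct
Each held 2 CCAAT matches (capitals, either strand) and neither held TATAAA or the octamer; upstream of all protein-coding genes 35.1%, 13.1% and 1.65% of 250-base stretches held these motifs. The H2afz stretch overlaps the start of the non-coding gene Gm43403 on the other strand, and the H3f4 stretch lies in an intron of Trim17.

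For 3 other variant genes the name stood at a distant position. H2afy2, which encodes macroH2A2, had 15 rows at P28, all at chr10:61840123, which is 55519 bp from its 5′ end and inside Col13a1. H1foo, the linker histone gene of oocytes, was named at P28 at a position 11664 bp away inside Plxnd1. H2afj was named at both ages at a position 8762 bp away inside Wbp11. These positions lie inside other genes and give no measurement at the 3 histone variant promoters.

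The other 7 variant genes appeared in neither list. H3f3a and H3f3b, the genes of the replacement histone H3.3, lay 37546 and 4277 bp from the closest listed position at both ages; the latter carried the name of the adjacent gene Unk. H2afv, the second gene of H2A.Z, was 28573 bp from a listed position at both ages; it lies on the minus strand and H2afz on the plus strand, and the part of strand in this difference was not tested. H2afx, whose product is phosphorylated at DNA breaks and on the sex chromosomes in meiosis, lay 249448 bp from a listed position at P28 and 267558 bp at P28.5. H2afy (macroH2A1) was 213397 and 690219 bp away, H1f0 was 45156 and 47011 bp away, and H3f3c was 71856 and 8916 bp away, at P28 and P28.5 in each case. H3f3a, H3f3b, H3f3c and H2afy also lie on the minus strand, and H2afx and H1f0 on the plus strand. Of the named positions of minus-strand protein-coding genes, 1 of 1098 at P28 and 3 of 416 at P28.5 stood exactly at a 5′ end. On the plus strand 50.7% and 53.7% did. The part of strand in these absences was not tested.

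**Figure D2:**
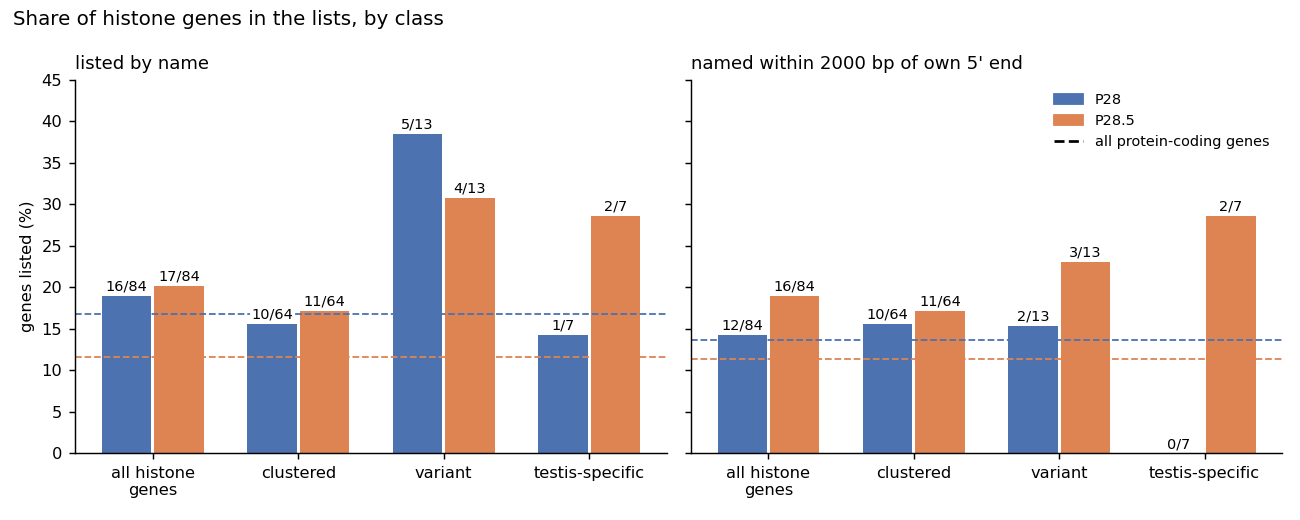
Share of genes listed (y axis, %) for all histone genes and each class at P28 (blue) and P28.5 (orange), by name (left) and at the own 5′ end (right); numbers above bars are genes listed of genes in the class and dashed lines are all protein-coding genes. For the variants the P28 bar falls from 5 to 2 of 13 genes between the rules, and the testis-specific bar from 1 to 0 of 7, while the clustered genes stay at 10 and 11 of 64.

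The 64 clustered genes gave the same counts by name and at the own start, 10 for the P28 list (15.6%) and 11 for the P28.5 list (17.2%). Of all protein-coding genes, 16.8% and 11.6% were listed by name, and 13.7% and 11.4% at the own start. The P28 share of the clustered genes was thus near that of all genes under both rules. The lists shared 7 of the clustered genes, while 3 belonged to the earlier list only and 4 to the later list only. Core histone genes of every type were among them. At the own start, H2A genes numbered 3 of 17 at P28 and 4 of 17 at P28.5, H2B genes 2 and 3 of 17, H3 genes 3 and 1 of 12, and H4 genes 2 and 3 of 13. None of the 5 clustered H1 genes (Hist1h1a to Hist1h1e) was listed at either age. With so few genes in each type, these counts describe the lists and no difference between types was tested.

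The 7 clustered genes listed at both ages were Hist3h2a on chromosome 11 and, on chromosome 13, Hist1h2ai, Hist1h2bm, Hist1h2bj, Hist1h4h, Hist1h3g and Hist1h2ad. Of the 6 on chromosome 13, 5 were listed exactly at the annotated 5′ end and Hist1h2bj 32 bp inside it. Hist3h2a had 3 positions, at 0, 17 and 148 bp from its 5′ end, in each list. The last of these is also a start of Trim17, a RING finger gene on the same strand, and the other 2 positions lie inside that gene, so the listing of Hist3h2a and of Trim17 cannot be told apart.

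Of the 10 histone genes listed at their own start at a single age, 6 lay in the largest of the histone gene clusters, which runs from Hist1h4h to Hist1h1a over 233.4 kb of chromosome 13 and holds 29 of the 84 genes. This cluster contributed 6 genes at each age (20.7%, against 13.7% and 11.4% of all protein-coding genes), 3 of them shared. Listed at P28 alone were Hist1h3c, Hist1h3b and Hist1h4a, which lie together in chr13:23745042-23761249. At P28.5 the closest listed position to these 3 genes was that of Hist1h4c, 47437, 54261 and 63165 bp away. Hist1h2bc and Hist1h4c were listed at P28.5 alone and flank Hist1h1t. At P28 their closest listed position was that of Hist1h3c, 60843 and 46584 bp away. These 5 genes thus stood in 2 separate stretches of the cluster, 1 for each age, while the 3 shared genes lay elsewhere in it.

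The remaining clustered genes listed at P28.5 alone differed less in position. Hist1h2af, an H2A gene, was listed 36 bp inside its 5′ end at P28.5, and at P28 the row of Hist1h3g lay 1543 bp from it. Hist4h4, the H4 gene of chromosome 6, was listed at its lower end, 438 bp from its 5′ end, and at P28 its closest listed position was 12579 bp away.

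The number of listed genes was also followed by cluster. The neighbouring cluster from Hist1h2bl to Hist1h2br, 121.8 kb with 18 genes, contributed the same 2 genes at each age, Hist1h2ai and Hist1h2bm, which stand at 1 end of it. The 5 genes from Hist1h2ah to Hist1h2bj, within 8.5 kb, contributed Hist1h2bj at both ages. The cluster of 10 Hist2 genes on chromosome 3, 50.3 kb long, contributed 0 genes at either age, and its closest listed positions were 38658 bp away at P28 and 47379 bp at P28.5. Whole runs of histone genes were therefore absent from the lists, while others held several listed genes.

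**Figure D3:**
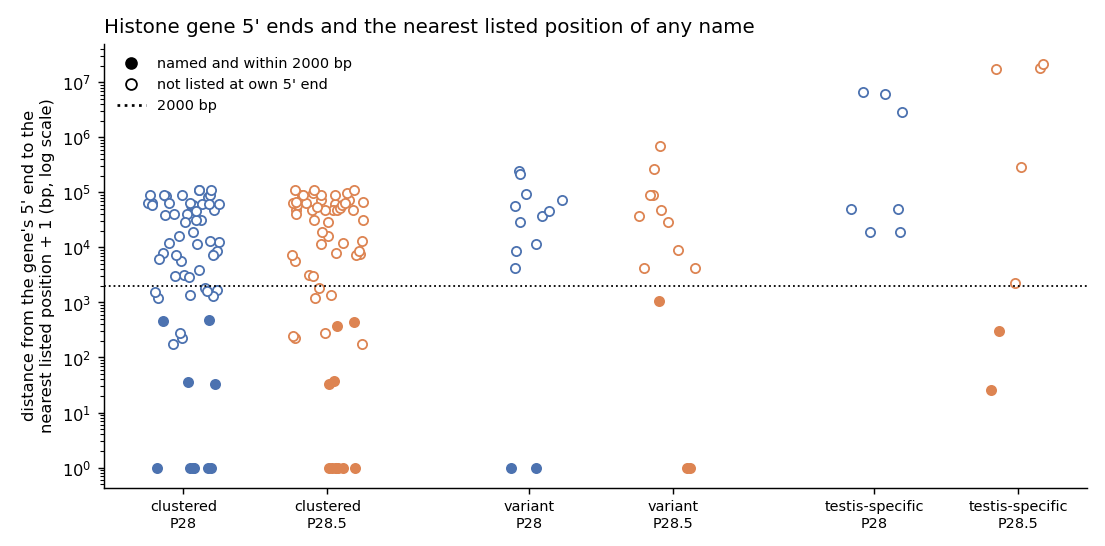
Distance from each histone gene's 5′ end to the nearest listed position of any name (y axis, bp + 1, log scale), by class and age; filled points are genes named within 2000 bp of their own 5′ end and the dotted line marks 2000 bp. Open points below the line are clustered genes, 10 at P28 and 7 at P28.5, whose neighbours were listed.

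Dense packing also brought listed positions of 1 histone gene close to the starts of others. Within 2000 bp of a 5′ end, counting a listed position of any name, there were 22 histone genes at P28 (26.2%) and 23 at P28.5 (27.4%), against 17.3% and 14.8% of all protein-coding genes. The genes gained by this rule, 10 at P28 and 7 at P28.5, were all clustered genes, and in each case the position carried the name of another histone gene, 174 to 1868 bp away. Hist1h2bl, Hist1h2bf and Hist1h2ag, for example, share their promoters with Hist1h2ai, Hist1h2ad and Hist1h2bj, which were listed at both ages.

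The head-to-head pairs shown above make this plain. The plus-strand gene was listed in 3 of 12 pairs at P28 and in 5 at P28.5, and the minus-strand gene in 0 and 1, the latter being Hist1h2ba of the TH2B/TH2A pair. In the 4 pairs with only the plus-strand gene listed, the lower end of its partner lay 621 to 726 bp from the 5′ end of the listed gene. ARID2 occupancy of a shared promoter could not be assigned to 1 gene of a pair from the lists, since the 4000-bp windows used for the clustering by the authors cover both.

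Promoter composition was compared over 250 bases before to 50 after the 5′ end, available from RefSeq for 78 of the 84 histone genes and 17492 protein-coding genes. The ratio of observed to expected CpG had a median of 0.740 in histone genes and 0.576 in all promoters, and the GC content a median of 46.8% and 56.3%. Histone gene promoters were thus richer in CpG for their base composition. The 18 listed at their own start at either age had a median CpG ratio of 0.775, close to the 0.730 of the 60 not listed. Testis-specific genes were lowest, with a median of 0.261 over 7 genes; the listed genes Hist1h2ba and Hist1h2aa had 0.455 and 0.549, and the unlisted Hist1h1t had 0.450.

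Among the same promoters, CCAAT was present in 82.1% of histone genes and 39.0% of all genes, TATAAA in 47.4% and 13.3%, and the octamer ATTTGCAT in 17.9% and 1.71%. The octamer, a known element of H2B promoters, was found in 6 of 16 H2B genes, 7 of 26 H2A genes and 0 of 12 H4 genes. Windows of head-to-head pairs overlap, so a motif between the starts could be counted for both partners. The octamer was so counted in Hist1h2ah/Hist1h2bk, Hist1h2ae/Hist1h2bg and Hist1h2ba/Hist1h2aa. Of the 7 H2A genes, Hist2h2ac and Hist1h2ac also belong to such pairs. The CCAAT and TATAAA shares are open to the same double count, so the genes are not independent promoters. Listed and unlisted clustered genes were alike in CCAAT (84.6% of 13 and 84.8% of 46). They stood apart in TATAAA, which was present in 3 of the 13 listed genes (23.1%) and in 30 of the 46 others (65.2%). This contrast was noticed after the data were seen and was not tested.

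Near-identical copies are a particular feature of histone genes, so the uniqueness of each region was measured as the share of 31-base words, within 2000 bases on either side of the 5′ end, that occur at 1 place in the genome. The median was 83.8% over the 84 genes, 82.5% for the clustered genes, 95.4% for the variants and 89.5% for the testis-specific genes. Within the gene itself the median was 34.8% for clustered genes. The median clustered gene was thus less unique over its own span than over the wider window; the share of reads with several matches was not measured.

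The 14 clustered genes listed at either age had 67.9% to 95.2% unique words (median 83.4%), and the 50 unlisted ones 0.6% to 98.4% (median 81.8%). Under 50% were 8 histone genes, 7 of them clustered, and none of the 8 was listed. They included Hist1h2bq (0.8%), Hist1h2br (0.6%), Hist1h2ao (1.4%) and Hist1h2ap (1.8%), which belong to a duplicated stretch. For these genes an absence of ARID2 and a misplacement of reads that fit several places cannot be told apart from the lists. In the unlisted Hist2 cluster the median was 66.8%. The part of uniqueness in the listing was not tested.

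**Figure D4:**
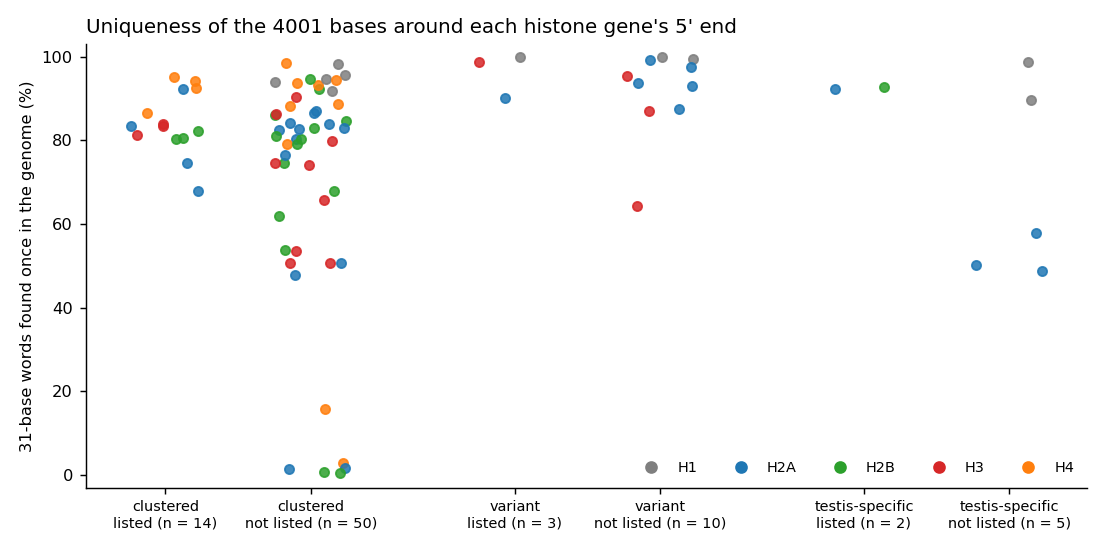
Share of 31-base words found at 1 place in the genome (y axis, %) within 2000 bases on either side of each histone gene's 5′ end, by class and by listing at the own 5′ end at either age; each point is a gene, coloured by histone. The 14 listed clustered genes lie at 67.9% or above, and the points near 0 are unlisted.

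Genes that act on histone mRNAs and proteins were looked up in 2 lists made by hand with earlier results of these data known, so their shares describe the chosen genes only. All protein-coding genes gave 13.7% (P28), 11.4% (P28.5) and 8.22% (both ages) at the own start. Of 14 genes of histone mRNA processing and the histone locus body, the nuclear site where clustered histone genes are transcribed, 5 were listed at their own start at both ages (35.7%) and none at a single age. They were Npat and Casp8ap2, which encode the activator NPAT and its partner FLASH, and Lsm11, Cpsf3 and Sympk, which encode parts of the complex that cuts histone pre-mRNA. Slbp, the gene of the protein that binds the histone mRNA stem-loop, was in neither list, and its closest listed position was 5554 bp away at both ages.

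Among 27 histone chaperone genes, 11 were listed at their own start at P28 (40.7%) and 12 at P28.5 (44.4%). Both ages shared 10, namely Asf1b, Rbbp4, Hira, Ubn1, Ubn2, Daxx, Nap1l1, Anp32e, Znhit1 and Set. Srcap, which encodes the ATPase that places H2A.Z, was listed at P28 alone, and Chaf1a and Ssrp1, for subunits of CAF-1 and FACT, at P28.5 alone. Chaf1b, Cabin1 and Nasp were named at P28 but 8195, 12323 and 7834 bp from their own 5′ ends. Of genes for factors that place H3.3, Hira, Ubn1, Ubn2 and Daxx were thus listed at both ages, whereas Asf1a, Cabin1 and Atrx were not listed at their own start.

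Of 11 genes for centromeric and spermatid chromatin proteins outside the symbol rule, 1 was listed at its own start at P28 (9.09%) and 0 at P28.5. This was Tnp1, which encodes transition protein 1, with a row at its 3′ end, 825 bp from its 5′ end, at P28. Hils1, a spermatid linker histone gene, was named at P28 at a position 4798 bp away. Tnp2, Prm1, Prm2, Prm3, Cenpa and the H2A and H2B variant genes H2al1a, H2al2a, H2al3 and H2bfm were in neither list. The closest listed position of any name was 243303 bp or more from Tnp2 and the protamine genes at both ages, and 147722 bp from Cenpa. Tnp2, Prm1, Prm2, Prm3 and H2al2a lie on the minus strand, and Cenpa and the X-linked genes H2al1a, H2al3 and H2bfm on the plus strand. The part of strand was not tested.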

How the data were processed

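CUT&RUN libraries of ARID2 were, per the labels and the study's methods, trimmed with TrimGalore, aligned to mm10 with Bowtie2, and cleared of blocklisted regions and PCR duplicates. The authors scaled coverage with csaw factors, took the log2 ratio to the library without primary antibody, averaged replicates, and divided RefSeq TSSs by k-means clustering of a 4000-bp window (DeepTools). The deposited cluster 1 lists hold 11553 rows, 7144 positions and 4095 names at P28, and 8514 rows, 5193 positions and 2707 names at P28.5, with no unit of signal.

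Names were matched to RefSeq genes as written, by a synonym of 1 gene, or by the GENCODE M21 name at the locus; 10 and 5 names had no match. A gene was listed when a row carried its name; other rules are defined where first used. Every variant, testis-specific and listed clustered gene is named in the text, with the listed genes of 3 other lists. Members and lists were chosen with earlier results of these data known. Functions were tested on simulated data. Python 3.11.15, numpy 2.4.6 and matplotlib 3.10.9 were used.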

Additional observations from a re-analysis of the deposited data

How the results depend on the processing

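Under the alternatives, 27 values stayed within 1.5 times the main value and 26 moved further, 4 of the latter being shares of all genes and the others counts of histone genes. With symbols taken only as the annotation now writes them, every count of histone genes was 0, since RefSeq has renamed the genes that the lists name. Minus-strand genes alone gave 3 histone genes at P28, 4 at P28.5 and 0 at both ages. A listed position of any name within 2000 bp gave 20 clustered genes at P28 and 18 at P28.5. Variant genes at P28 numbered 2, in place of 5, with any position within 2000 bp, within 500 bp, and with the named position at the own 5′ end, and at P28.5 they numbered 2 within 500 bp. Testis-specific genes at P28 numbered 0, in place of 1, under the same 3 settings and 2 with H3f4 in that class. The share of genes named was 8.23% at P28 and 5.45% at P28.5 over all annotated genes, and 5.87% and 2.55% over single-exon protein-coding genes. The named position at the own 5′ end and both settings for H3f4 were chosen after seeing the data. The cause of these shifts was not tested beyond what each rule leaves out by construction. No paired analysis was possible because only the lists were used, each made from averaged replicates, and no test was made.

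The lists carry no signal or peak height, so the distance of an unlisted gene from the boundary of the clustering is unknown. Each age has 1 list, and a gene listed at 1 age is not shown to differ between ages.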

Other observations

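Symbol and position disagree more often at P28 than at P28.5 over the whole lists as well: 1177 of 7131 named positions at P28 and 90 of 5184 at P28.5 lay over 2000 bp from every annotated 5′ end of the named gene. Of these distant positions, 84.8% at P28 and 54.4% at P28.5 carried the name of the gene with the closest 5′ end among protein-coding genes and genes named in either list. Among histone genes the distant positions numbered 4 and 1.

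Zfp473, a zinc finger gene whose product takes part in histone pre-mRNA processing, was named in neither list, although a listed position under another name lay 12 bp from its 5′ end at both ages. By any listed position within 2000 bp, 6 of the 14 genes of histone mRNA processing and the histone locus body (42.9%) were near a listed position at each age. Of all protein-coding genes, 17.3% at P28 and 14.8% at P28.5 were near one by this rule.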
